A study of Mus musculus with 12 samples.

Results

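The 38 genes described here mark blood cells. They were the rows of the raw count table whose gene name is on a list of transcripts made by leukocytes, and all 38 were found among the 55401 genes of the table, which has a count column for each of the 12 libraries. By role they were 6 genes shared by leukocytes (Ptprc, Cd52, Cd53, Cd37, Coro1a and Laptm5), 4 regulators and signalling proteins (Spi1, Ikzf1, Vav1 and Rac2), 12 myeloid genes (Tyrobp, Fcer1g, Lyz2, Cd68, Csf1r, Adgre1, C1qa, C1qb, C1qc, Mrc1, Cd14 and Cybb), 4 genes of antigen presentation (Cd74, H2-Aa, H2-Ab1 and H2-Eb1), 3 B cell genes (Cd79a, Cd79b and Ms4a1) and 9 T and NK cell genes (Cd3e, Cd3d, Cd3g, Cd8a, Cd4, Nkg7, Gzma, Ccl5 and Lck).

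The libraries are bulk RNA-seq of Pax7-ZsGreen+ satellite cells, the stem cells of skeletal muscle, sorted from the hind limbs of adult mice 3 to 4 months old. All mice carried the floxed Cxcr4 FL/FL allele and received tamoxifen at 80 mg/kg for 5 days. KO mice also carried Pax7-creERT2, which cuts the floxed allele in Pax7-expressing cells, and WT mice lacked the Cre. Quiescent cells (4 libraries per genotype) were used fresh from the sort, and activated cells (2 libraries per genotype) after a night in growth medium. The sort for these libraries is described by ZsGreen and by exclusion of propidium iodide, a dye of dead cells, with no blood cell antibody named for it. Blood cells do not express Pax7, the gene that drives the Cre.

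Muscle holds resident macrophages and, in smaller numbers, dendritic cells and lymphocytes, and its vessels hold circulating blood. Leukocytes share a set of transcripts, among them Ptprc, which encodes the surface phosphatase CD45, and each lineage adds its own: macrophages make complement C1q and the mannose receptor Mrc1, B cells make the antigen receptor partners Cd79a and Cd79b, and T cells make the CD3 chains. Professional antigen-presenting cells, whether macrophages, dendritic cells or B cells, make the MHC class II chains and Cd74, the invariant chain that guides them. In bulk samples, fewer cells of a type and less RNA per cell cannot be told apart.

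The targeted gene followed the labels. Cxcr4 stood at 59.1 to 112 CPM (counts set to the TMM-scaled library size) in WT quiescent and at 12.5 to 21.2 CPM in KO quiescent libraries. In activated libraries it stood at 33.3 and 14.5 CPM in WT and at 5.39 and 13.7 CPM in KO. Among marker lists for satellite, endothelial, fibroadipogenic and smooth muscle cells, that of satellite cells had the highest sum in every library. Its 9 genes reached 5412 to 9833 CPM in quiescent and 3064 to 4344 CPM in activated libraries. In every group Sdc4, Myod1 and Des had the highest means of the list, while Pax7 averaged 392 CPM in WT quiescent libraries. The lists differ in size, and their sums are not scaled for it. The total per library lay between 12775593 and 23717013 counts for quiescent cells and between 3172164 and 5427280 for activated ones, so that 3 counts, the limit used here for a count of 0, equal 0.125 to 0.213 CPM in the former and 0.490 to 1.31 CPM in the latter. Activated libraries also differed from quiescent ones in the ribosomal RNA gene CT010467.1 (11.5% to 40.3% of counts, under 1% in quiescent libraries) and in Xist, the transcript of the inactive X chromosome (451 to 817 CPM against 1.20 to 7.17 CPM), so culture, depth, ribosomal RNA and the sex of the mice cannot be told apart in any comparison of the states.

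Some members lie beside each other in the genome, among them the chains of C1q, of MHC class II and of CD3. C1qb, C1qc and C1qa, the 3 chains of complement C1q, lie in a row on the minus strand of chromosome 4 (chr4:136880129-136886187, chr4:136889804-136893065 and chr4:136895917-136898803 in GRCm38), and H2-Ab1, H2-Aa and H2-Eb1 follow each other on chromosome 17 (chr17:34257689-34269419, chr17:34282744-34287823 and chr17:34305867-34316674). The promoters of 5 members are shown because the chains of C1q, and those of MHC class II, kept near-constant ratios across the quiescent libraries. Cd79a is added as a B cell gene. It was highest in KO quiescent replicate 2, as was H2-Eb1, while the C1q chains and H2-Aa were highest in KO replicate 4. The sums of the antigen presentation and B cell genes were both lowest in KO replicate 3. Each stretch is the 200 bases just before the RefSeq start site in GRCm38.p6, 5′ to 3′ on the strand of the gene. C1qb is chr4:136886201-136886400 and C1qc chr4:136892915-136893114, both on the minus strand, Cd79a is chr7:24897297-24897496 on the plus strand, H2-Aa is chr17:34287824-34288023 on the minus strand and H2-Eb1 is chr17:34305667-34305866 on the plus strand. Capitals mark GGAAGT, read on either strand, in the first 3, and CTGATTGG in the last 2.
C1qb: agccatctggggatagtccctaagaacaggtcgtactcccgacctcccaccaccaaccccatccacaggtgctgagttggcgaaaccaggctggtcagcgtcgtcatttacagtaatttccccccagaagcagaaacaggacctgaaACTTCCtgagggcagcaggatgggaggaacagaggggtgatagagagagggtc
C1qc: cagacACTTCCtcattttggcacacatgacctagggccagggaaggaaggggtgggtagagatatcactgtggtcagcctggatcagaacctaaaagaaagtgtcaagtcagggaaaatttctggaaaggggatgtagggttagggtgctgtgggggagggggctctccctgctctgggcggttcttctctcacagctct
Cd79a: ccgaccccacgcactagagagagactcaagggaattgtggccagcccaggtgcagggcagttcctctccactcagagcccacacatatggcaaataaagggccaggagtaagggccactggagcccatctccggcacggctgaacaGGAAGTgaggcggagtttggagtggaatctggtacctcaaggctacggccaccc
H2-Aa: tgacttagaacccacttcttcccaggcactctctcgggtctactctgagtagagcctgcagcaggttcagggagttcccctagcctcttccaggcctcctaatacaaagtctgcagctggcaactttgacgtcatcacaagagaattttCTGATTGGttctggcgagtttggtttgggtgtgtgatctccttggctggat
H2-Eb1: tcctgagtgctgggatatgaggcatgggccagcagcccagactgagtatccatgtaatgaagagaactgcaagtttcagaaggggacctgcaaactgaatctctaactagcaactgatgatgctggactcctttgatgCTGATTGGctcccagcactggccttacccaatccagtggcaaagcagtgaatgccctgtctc

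GGAAGT is a core of sites for ETS factors, the family of PU.1, which Spi1 encodes, and CTGATTGG is the Y box of MHC class II promoters. Both motifs were chosen after their matches were seen. The tagged GGAAGT begins 53 bases before the RefSeq start of C1qb, 195 before that of C1qc and 54 before that of Cd79a. CTGATTGG begins 51 bases before the RefSeq start of H2-Aa and 62 before that of H2-Eb1. In GENCODE the starts of C1qc (chr4:136893065) and Cd79a (chr7:24897381) lie inside the printed stretches. Part of each of these stretches is thus within the GENCODE gene, as is the tagged GGAAGT of Cd79a, while that of C1qc lies before it. In windows of 250 bases before to 50 after the start, GGAAGT on either strand was in 16 of the 28 windows of members. It was in 23.8% of the 32851 windows of all genes. Counted by gene, where a gene can have several windows, it was in 14 of the 24 members with a window (58.3%). CTGATTGG was in 3 of the 28 windows of members and in 4.10% of all windows. By gene it was in 3 of the 24 members, H2-Aa, H2-Eb1 and Gzma (12.5%). These are matches of letters and say nothing of binding.

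Blood cell transcripts were a small share of every library. The 38 genes together took 0.0265% to 0.0613% of counts in WT quiescent, 0.0257% to 0.108% in KO quiescent, 0.00927% to 0.0131% in WT activated and 0.0126% to 0.0162% in KO activated libraries. Per length, by the authors' FPKM with 1 value per group, Cd74 (59.7 FPKM) and Lyz2, which encodes lysozyme (58.2 FPKM), led the members in KO quiescent cells, ahead of the lysosomal Cd68 (30.0 FPKM) and C1qa (26.8 FPKM). Pax7 had 40.9 FPKM in the same column. In WT quiescent cells the leading members were Lyz2 (33.7 FPKM), Cd74 (33.6 FPKM) and Cd68 (23.7 FPKM), against 64.9 FPKM for Pax7. The surface marker Ptprc was low on this scale, with 0.942 FPKM in KO and 0.515 FPKM in WT quiescent cells, and so were the CD3 chains, with 0.299 to 0.808 FPKM in KO and 0.396 to 0.543 FPKM in WT quiescent cells.

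**Figure D1:**
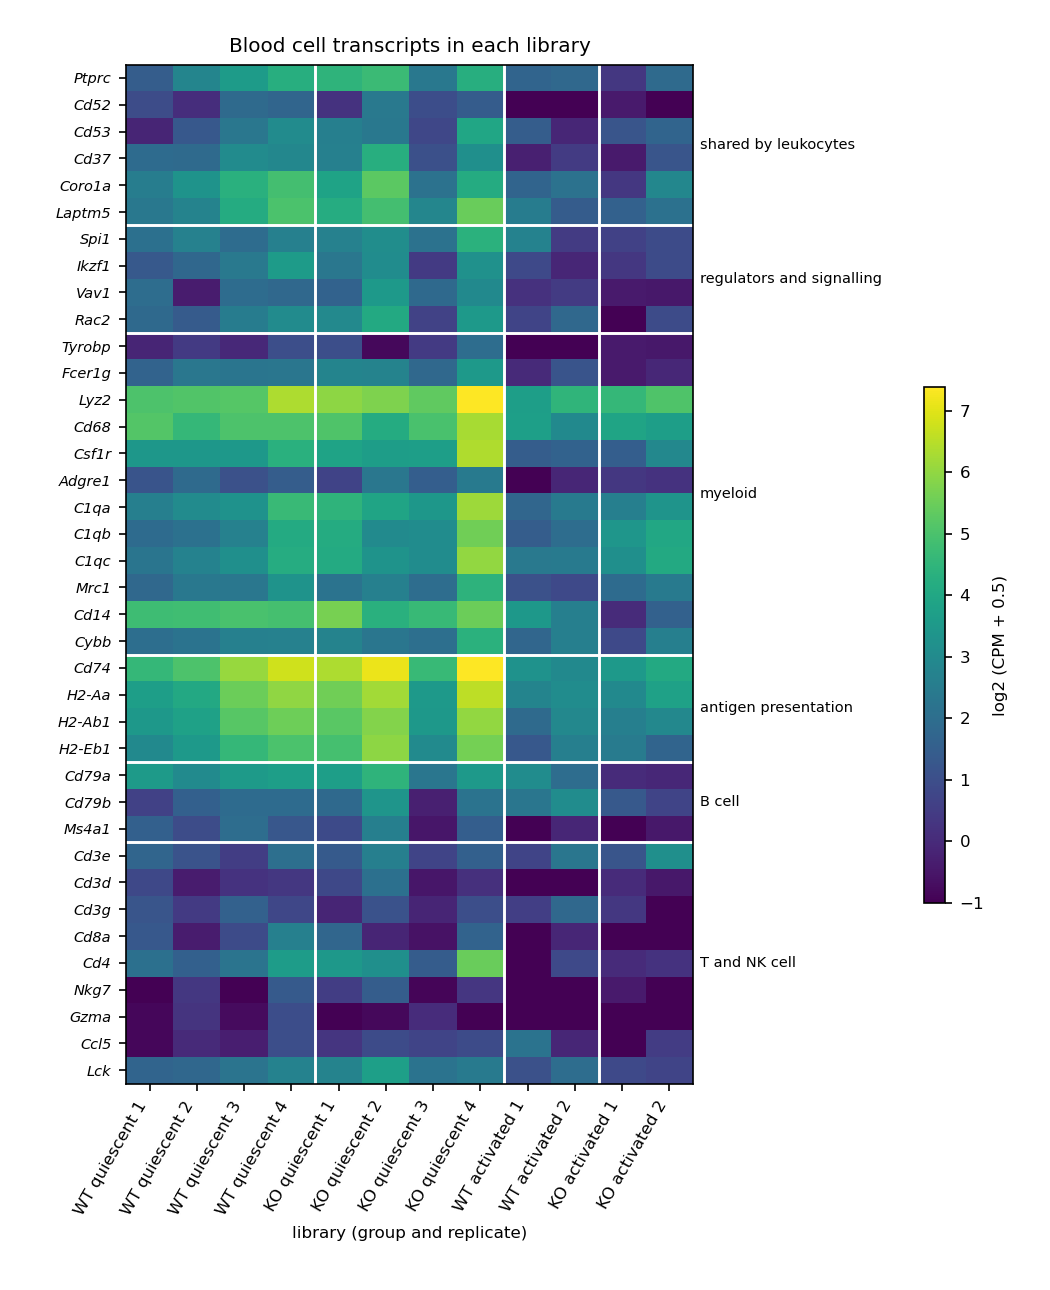
Level of each of the 38 blood cell transcripts (rows, by role) in each of the 12 libraries (columns), as log2 of CPM plus 0.5. KO quiescent replicate 4 is bright across the myeloid rows (Lyz2 at 164 CPM), KO quiescent replicate 2 across the B cell rows (Cd79a at 21.3 CPM), and the activated columns are dark across most rows.

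Ptprc was the plainest leukocyte marker. Its levels in WT quiescent replicates 1 to 4 were 2.24, 6.46, 11.5 and 18.8 CPM. In KO quiescent replicates 1 to 4 they were 21.3, 25.8, 4.65 and 18.5 CPM. WT activated libraries had 2.78 and 3.07 CPM, and KO activated libraries 0.771 and 3.19 CPM. Quiescent libraries of both genotypes therefore spanned a wide range that overlapped, with WT replicate 1 and KO replicate 3 the lowest in their groups. Laptm5, a lysosomal membrane protein of leukocytes, had 4.65, 6.17, 17.5 and 31.5 CPM in WT quiescent and 17.6, 28.6, 6.73 and 43.6 CPM in KO quiescent libraries. It had 5.23 and 2.19 CPM in WT activated and 2.57 and 3.88 CPM in KO activated libraries. The same WT replicate 1 and KO replicate 3 were lowest, and the activated libraries were at or below most quiescent ones. Among the others, Coro1a, an actin-binding protein of leukocytes, ran from 3.95 to 38.2 CPM across the quiescent libraries and the tetraspanin Cd37 from 1.58 to 18.7 CPM, both highest in KO replicate 2. The tetraspanin Cd53 ran from 0.418 to 15.2 CPM and was highest in KO replicate 4, and the small surface glycoprotein Cd52 ran from 0.568 to 4.78 CPM. Summed over the 6 genes shared by leukocytes, the level ran from 17.4 to 96.8 CPM in WT quiescent and from 19.6 to 121 CPM in KO quiescent libraries.

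Spi1, the gene of the transcription factor PU.1 of myeloid and B cells, had 3.76, 5.96, 3.38 and 5.78 CPM in WT quiescent and 5.95, 8.20, 3.99 and 19.9 CPM in KO quiescent libraries. WT activated libraries had 6.04 and 0.876 CPM and KO activated libraries 1.03 and 1.37 CPM. KO quiescent replicate 4 stood above all the others, and the 2 WT activated libraries differed from each other more than the WT quiescent ones did. Ikzf1, the lymphoid regulator Ikaros, was at 0.831 to 11.5 CPM in the quiescent libraries, highest in WT replicate 4. Vav1, an exchange factor downstream of antigen receptors, ran from 0.284 to 11.1 CPM, and Rac2, the small GTPase of blood cells, from 1.08 to 16.5 CPM. Both of these were highest in KO replicate 2.

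Myeloid genes, the longest list, had the largest summed level of the role groups in 9 of the 12 libraries. They came behind antigen presentation in WT quiescent replicates 3 and 4 and KO quiescent replicate 2. The lists hold 3 to 12 genes, and the sums are not scaled for list size or gene length. Lyz2 had 32.2, 34.3, 35.6 and 81.2 CPM in WT quiescent replicates 1 to 4. It had 61.1, 53.8, 40.0 and 164 CPM in KO quiescent replicates 1 to 4. WT activated libraries had 12.4 and 21.9 CPM and KO activated libraries 23.4 and 33.1 CPM. Replicate 4 of each genotype was apart from its group. C1qa had 5.69, 7.73, 9.21 and 24.9 CPM in WT quiescent and 21.6, 14.3, 10.4 and 70.7 CPM in KO quiescent libraries. Its activated levels were 2.94 and 4.82 CPM in WT and 5.65 and 9.58 CPM in KO. Replicate 4 again was the highest of each quiescent group, and the groups overlapped. Mrc1, the mannose receptor of resident macrophages, had 3.08, 4.61, 4.47 and 9.49 CPM in WT quiescent and 4.12, 5.81, 3.45 and 21.1 CPM in KO quiescent libraries. It had 1.63 and 1.31 CPM in WT activated and 3.34 and 5.02 CPM in KO activated libraries.

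Tyrobp, the signalling adaptor DAP12 of myeloid and NK cells, was near the limit of detection. WT quiescent libraries had 0.418, 0.851, 0.482 and 1.54 CPM and KO quiescent libraries 1.51, 0.0683, 0.831 and 3.49 CPM. It had no count in either WT activated library and 0.257 and 0.228 CPM, 1 count each, in KO activated libraries. Of the 12 myeloid genes, 11 were highest in KO quiescent replicate 4 among the 8 quiescent libraries, and the other, the lipopolysaccharide co-receptor Cd14, was highest in KO replicate 1 at 50.5 CPM. Cd14 was also the steadiest member across the quiescent libraries, with a coefficient of variation of 32.8%. It stood at 27.3 to 31.1 CPM in WT quiescent libraries. Csf1r, the receptor of the macrophage growth factor, had 10.4 to 19.7 CPM in WT quiescent, 12.2 to 14.1 CPM in KO quiescent replicates 1 to 3 and 83.4 CPM in KO replicate 4.

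The other myeloid genes ran in the quiescent libraries from 2.66 to 10.9 CPM for Fcer1g, 17.4 to 76.8 CPM for Cd68, 1.10 to 4.82 CPM for Adgre1 and 3.60 to 19.9 CPM for Cybb, a subunit of the oxidase of phagocytes.

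The genes of antigen presentation kept near-constant ratios in quiescent libraries. Cd74 had 23.6, 32.4, 67.8 and 110 CPM in WT quiescent replicates 1 to 4. It had 80.3, 140, 24.3 and 166 CPM in KO quiescent replicates 1 to 4. WT activated libraries had 9.15 and 7.44 CPM and KO activated libraries 11.0 and 16.7 CPM. Every activated library was below every quiescent one. The counts of H2-Aa, the alpha chain of MHC class II, were 0.498 to 0.660 of those of Cd74 in WT quiescent and 0.460 to 0.582 in KO quiescent libraries, so the pair kept a narrow ratio while Cd74 itself ranged from 23.6 to 166 CPM. The beta chain H2-Ab1 had 0.410 to 0.536 of the Cd74 counts in WT and 0.390 to 0.464 in KO quiescent libraries. H2-Eb1, another beta chain, had 0.289 to 0.348 in WT and 0.292 to 0.439 in KO. In activated libraries, on 12 to 73 counts per gene, the ratios to Cd74 were wider, from 0.674 to 1.06 for H2-Aa, 0.357 to 0.941 for H2-Ab1 and 0.164 to 0.765 for H2-Eb1. The C1q chains also kept near-constant ratios in quiescent libraries, with C1qb at 0.495 to 0.677 of the C1qa counts in WT and 0.531 to 0.795 in KO, and C1qc at 0.708 to 0.924 in WT and 0.665 to 0.915 in KO. Promoters of both sets are among those printed above. Other partner genes, at lower counts, were less even in the quiescent libraries. Cd79b, with as few as 8 counts, had 0.0926 to 0.327 of the Cd79a counts in WT and 0.0755 to 0.458 in KO. Cd3d, with as few as 4 counts, had 0.167 to 0.714 of the Cd3e counts in WT and 0.179 to 0.671 in KO.

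B cell genes peaked in another library than most myeloid genes. Cd79a had 11.3, 7.59, 11.4 and 12.5 CPM in WT quiescent and 12.6, 21.3, 4.40 and 11.1 CPM in KO quiescent libraries. It had 7.84 and 3.50 CPM in WT activated and 0.514 and 0.456 CPM, 2 counts each, in KO activated libraries. KO quiescent replicate 2 was the highest and replicate 3 the lowest of the quiescent libraries. Ms4a1, the gene of CD20, had 2.45, 1.42, 3.47 and 1.93 CPM in WT quiescent and 1.36, 5.60, 0.208 and 2.31 CPM in KO quiescent libraries. In activated libraries it was at 0 and 0.438 CPM in WT and at 0 and 0.228 CPM in KO. Cd79b ran from 0.332 to 9.77 CPM in the quiescent libraries. All 3 B cell genes were highest in KO quiescent replicate 2, and replicate 4 of the KO, the peak of the myeloid genes, had 17.5 CPM of summed B cell genes against 11.5 to 18.2 CPM in WT quiescent libraries.

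Most T and NK cell genes were low. Cd3e, a chain of the T cell receptor complex, had 2.82, 1.70, 0.921 and 3.71 CPM in WT quiescent and 2.09, 5.60, 1.16 and 2.46 CPM in KO quiescent libraries. It had 1.14 and 4.38 CPM in WT activated and 1.80 and 8.44 CPM in KO activated libraries, and its groups overlapped throughout. Nkg7, a granule protein of cytotoxic cells, had 0, 0.780, 0 and 2.12 CPM in WT quiescent and 0.939, 2.25, 0.0415 and 0.756 CPM in KO quiescent libraries. It was at 0 in both WT activated libraries and at 0.257 and 0 CPM in KO activated libraries. Gzma, which encodes granzyme A, had no count in 6 of the 12 libraries. The quiescent range was 0.166 to 5.78 CPM for the co-receptor Cd8a, 0.0522 to 1.54 CPM for the chemokine Ccl5 and 2.77 to 12.7 CPM for Lck. Among the 9 genes, 4 were highest in KO quiescent replicate 2, 3 in WT replicate 4, Cd3g in WT replicate 3 and Cd4 in KO replicate 4. Cd4 is also made by some macrophages and dendritic cells. Its highest level, 44.1 CPM, was in the library with the highest Csf1r and C1qa, where the counts of Cd4 were 18.0 times those of Cd3e. In the other quiescent libraries the ratio was 1.33 to 5.08.

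**Figure D2:**
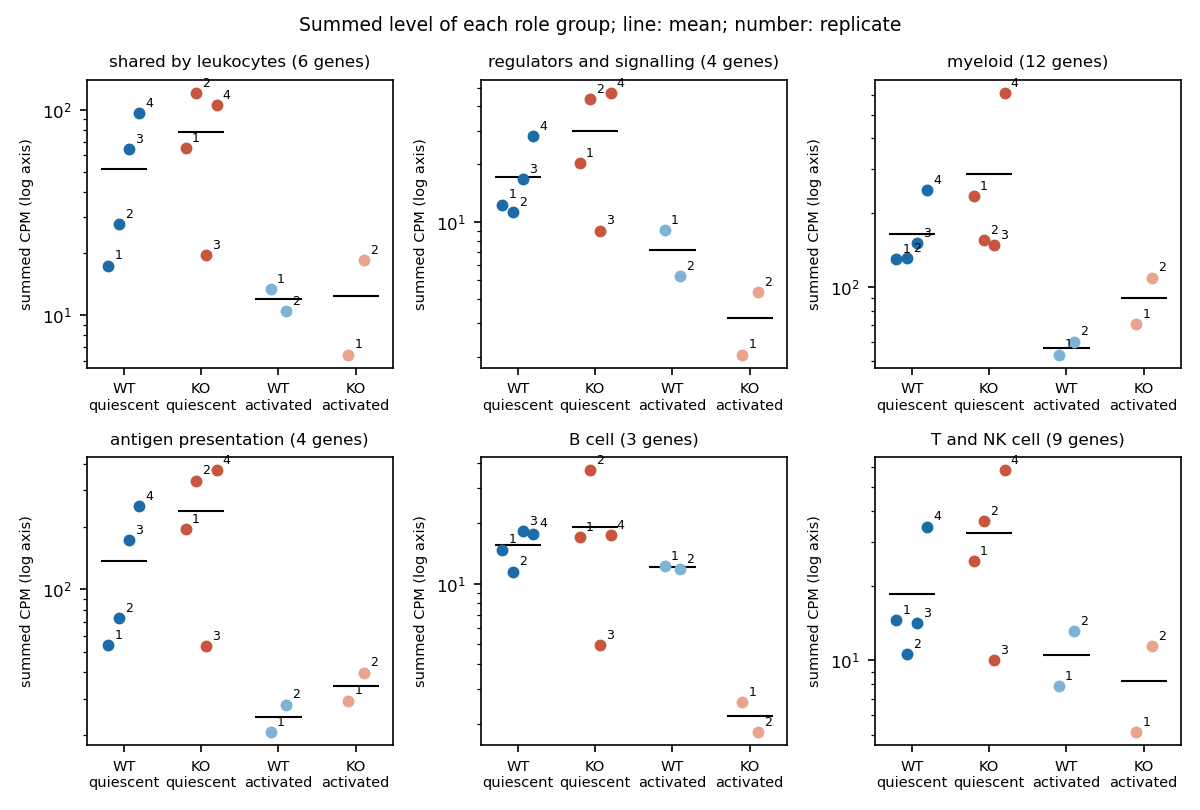
Summed CPM (log axis) of each role group in each library, with a line at the mean of the group and the replicate number beside each point. The myeloid sum ran from 129 to 246 CPM in WT quiescent and reached 611 CPM in KO quiescent replicate 4, while the B cell sum was 4.94 to 36.7 CPM across KO quiescent libraries with its highest point in replicate 2.

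The highest levels of the members lay in few libraries. Of the 38, 18 (47.4%) had their highest quiescent level in KO replicate 4, where 14.6% of all genes tested did, and 14 (36.8%) in KO replicate 2, where 23.3% of all genes did. Another 4 (Ikzf1, Cd8a, Gzma and Ccl5) peaked in WT replicate 4. The median coefficient of variation over the 8 quiescent libraries was 71.5% for the members and 45.6% for all genes tested. The ratio of summed myeloid to summed B cell CPM was 8.22 to 13.9 in WT quiescent libraries and 13.7, 4.22, 29.9 and 34.9 in KO quiescent replicates 1 to 4. The ratio thus spanned a wider range among KO than among WT quiescent libraries, and that difference was not tested.

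**Figure D3:**
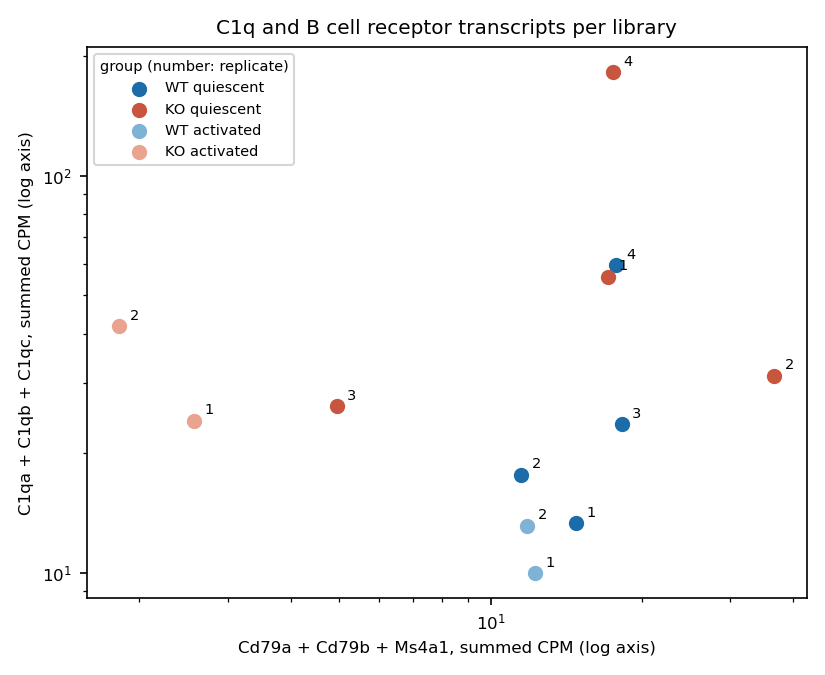
Summed CPM of the 3 C1q genes (vertical) against that of the 3 B cell genes (horizontal) in each library, both axes logarithmic, with the replicate number beside each point. KO quiescent replicate 4 is highest in C1q at 182 CPM, replicate 2 is farthest right at 36.7 CPM, and the 2 KO activated libraries are far left at 2.57 and 1.83 CPM.

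The sums of other cell types were set beside those of the members. The 9 satellite cell genes summed to 5412, 5616, 7769 and 9250 CPM in WT quiescent replicates 1 to 4, where the 38 members summed to 242, 265, 436 and 673 CPM, the same order. In KO quiescent replicates 1 to 4 the satellite cell genes summed to 6845, 6007, 6390 and 9833 CPM and the members to 555, 724, 245 and 1212 CPM, with replicate 4 highest in both. The sum of 8 endothelial genes, among them Pecam1 and Cdh5, was 1445, 1409, 587 and 693 CPM in WT quiescent and 1581, 535, 1407 and 321 CPM in KO quiescent libraries. It was lowest in KO replicate 4, where the 38 blood cell genes summed highest, and high in KO replicate 1. All 7 erythroid genes, such as the globin gene Hba-a1 at 218 CPM, peaked in WT quiescent replicate 2 and were among the lower values in the library with the most myeloid transcripts, where Hba-a1 was at 6.14 CPM. The part of satellite cell RNA, endothelial cells or red cells in the members' levels was not tested. Cxcr4 stood at 17.6, 21.2, 12.5 and 17.1 CPM in KO quiescent replicates 1 to 4, lowest in replicate 3, where the members' sum was lowest, but not highest in replicate 4, where that sum was highest. The part of blood cells in the Cxcr4 counts of KO libraries was not tested.

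Other genes of blood cells gave the lineages more detail. Plasma cell and B cell transcripts outside the members were uneven: Ighm, the heavy chain of IgM, had 6.37 to 40.5 CPM in WT quiescent and 240, 54.0, 1.83 and 88.3 CPM in KO quiescent libraries. Igkc, the kappa light chain, had 2.55 to 28.2 CPM in WT quiescent and 114, 79.6, 0.665 and 89.5 CPM in KO quiescent libraries. Immunoglobulin was thus highest in KO replicate 1, where Cd79a was not. Mast cell proteases stood out in a pair of libraries, with Mcpt4 at 12.5 CPM in both WT quiescent replicate 3 and KO quiescent replicate 1, and at most 1.70 CPM in the other quiescent libraries. Neutrophil genes were sparse, with S100a8 at 0.283 to 4.78 CPM in the quiescent libraries. None of the 7 neutrophil, mast cell, dendritic cell, B cell, T cell, erythroid and platelet lists had a gene called between KO and WT in either state.

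Between KO and WT quiescent libraries, no member was called by edgeR at an adjusted p under 0.05, where 0.0155% of the 25771 genes tested were called (0.00776% higher and 0.00776% lower). The levels of 35 members were nominally higher and 3 (Cd3g, Cd8a and Gzma) lower in KO, and 0 of 38 had KO and WT values that did not overlap, where 0.869% of all genes lay wholly higher and 0.827% wholly lower. The median log2 fold change was 0.74 over the members and 0.02 over all genes tested. Leaving out KO replicate 4 brought it to 0.33, with 30 members higher, and leaving out KO replicate 2 to 0.57, with 25 higher. Unadjusted, 8 members and 448 of all genes tested had a p under 0.05 by edgeR. By role, the median log2 fold change was 0.69 for the genes shared by leukocytes, 0.98 for regulators, 0.81 for myeloid genes, 0.77 for antigen presentation, 0.20 for B cell genes and 0.44 for T and NK cell genes.

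C1qa had a log2 fold change of 1.30 ± 0.51 (SE), with means of 29.3 ± 28.0 CPM in KO and 11.9 ± 8.80 CPM in WT (SD, n = 4 each). Its adjusted p was 1 by edgeR, and without KO replicate 4 the change was 0.38. Lyz2 differed by 0.80 ± 0.38 and Spi1 by 1.01 ± 0.48, which became 0.17 and 0.36 without that library. Mrc1, at 0.67 ± 0.50, and Tyrobp, at 0.84 ± 0.88, turned to -0.28 and -0.024 without it. Ptprc, at 0.84 ± 0.52, was 0.82 with KO replicate 4 left out and 0.59 with KO replicate 2 left out. Cd74 differed by 0.81 ± 0.46 and Laptm5 by 0.69 ± 0.52. Cd79a (0.20 ± 0.38), Ms4a1 (0.02 ± 0.73), Cd3e (0.29 ± 0.60) and Nkg7 (0.44 ± 1.28) lay within 1 SE of 0 and turned to -0.20, -0.86, -0.27 and -0.33 without KO replicate 2. All 12 had an adjusted p of 1. With no filter on low counts, which changes the estimate of the spread, C1qa, C1qb, C1qc, Csf1r and Cd4 were called, with adjusted p from 0.00237 to 0.0197.

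**Figure D4:**
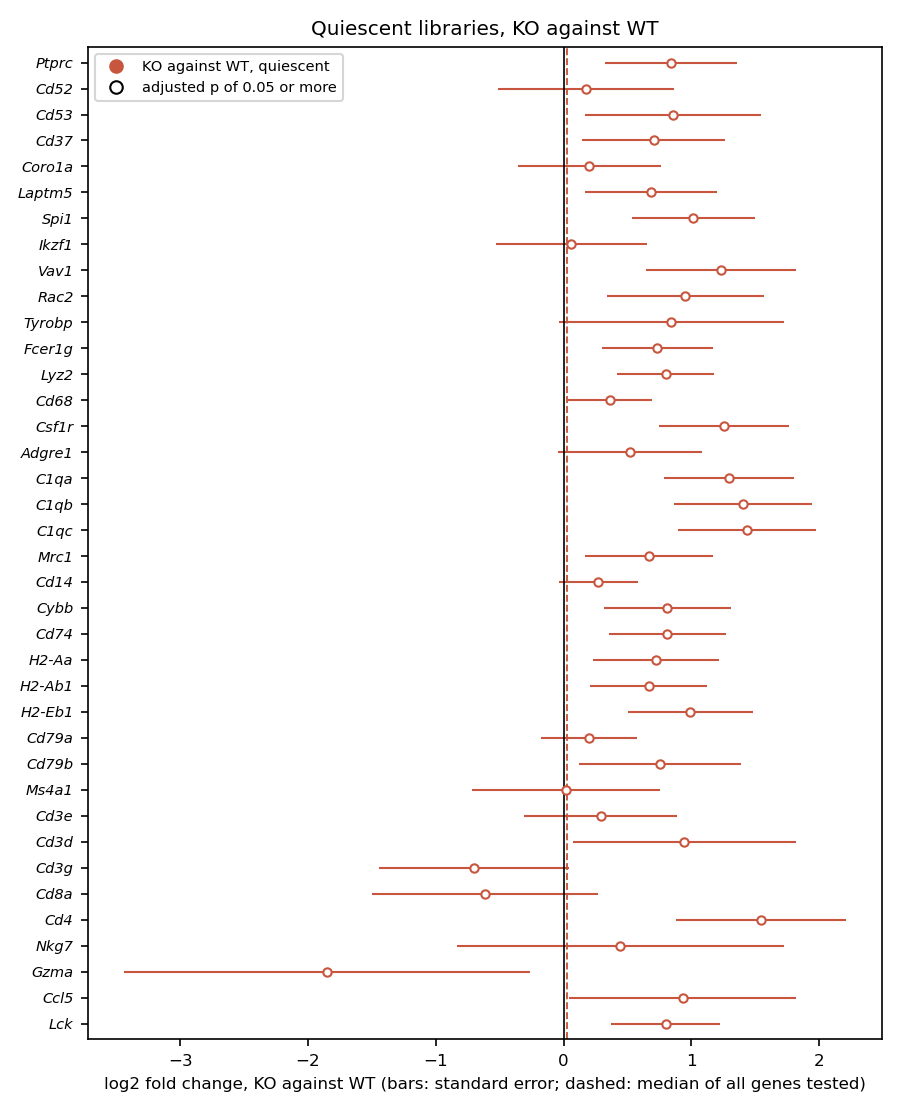
Log2 fold change of each member between KO and WT quiescent libraries with its standard error; open points did not pass an adjusted p of 0.05, and the dashed line is the median of all genes tested. All 38 points are open, and 35 lie above 0.

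Between KO and WT activated libraries, again no member was called, where 0.0504% of all genes tested were (0.031% higher and 0.0194% lower). Of the members, 22 were nominally higher and 15 lower, with a median log2 fold change of 0.31 against 0 for all genes. That median turned to -0.27 without KO activated replicate 2. In 9 members both KO libraries lay above both WT libraries (23.7%, against 15.2% of all genes), among them C1qa, C1qb, C1qc, Mrc1, Lyz2 and Cd74. The rest were Tyrobp and Cd3d, with no WT activated count, and Adgre1, with 1. In 7 members both KO libraries lay below both WT libraries (18.4%, against 9.50% of all genes), among them Cd79a, Cd79b and Cd14. The rest were Lck, with 10 counts in all over the KO activated libraries, and Fcer1g, Cd3g and Vav1, with 3, 3 and 2. Cd79a had the lowest p of the members, with a log2 fold change of -3.60 ± 0.82 and an adjusted p of 0.133 by edgeR. Cd14, at 10.5 and 5.69 CPM in WT and 0.514 and 2.51 CPM in KO, differed by -2.43 ± 0.61 with an adjusted p of 0.167. DESeq2 called both, with adjusted p of 0.0261 and 0.0166, and edgeR called both without WT activated replicate 2 (0.0147 and 0.0236). In the KO libraries Cd79a rested on 4 counts and Cd14 on 13.

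C1qb was at 2.29 and 3.50 CPM in WT activated and 10.0 and 15.7 CPM in KO activated libraries, a log2 fold change of 2.22 ± 0.91 with an adjusted p of 0.510 by edgeR. Its counts were 1.64 and 1.77 times those of C1qa in the KO activated libraries and 0.727 and 0.778 times in the WT ones, where the 8 quiescent libraries had at most 0.795. For C1qc the ratio to C1qa was above all 8 quiescent libraries in both genotypes, at 1.61 and 1.00 in WT and 1.50 and 1.71 in KO. In WT activated libraries these ratios rested on 8 to 29 counts per gene. Of the other lead members, Mrc1 differed by 1.46 ± 0.89, C1qa by 1.05 ± 0.87, Lyz2 by 0.76 ± 0.58, Cd74 by 0.72 ± 0.74 and Cd3e by 1.02 ± 0.95. Ptprc (-0.52 ± 0.98), Laptm5 (-0.31 ± 0.94) and Spi1 (-1.67 ± 0.87) lay below 0. Their adjusted p ran from 0.63 to 1. Tyrobp, Ms4a1 and Nkg7 had at most 1 count in each activated library, so no fold between the genotypes is given for them. The difference between the KO effects of the 2 states was called in no member and in no gene (0%), with 4 members and 1699 genes at an unadjusted p under 0.05 by edgeR. It was largest in size for Cd79a among lead members with counts in all 4 groups, at -3.80 ± 0.91 with an adjusted p of 0.29. For the other lead members with at least 4 counts in each group it ran from -2.68 ± 0.99 for Spi1 to 0.80 ± 1.02 for Mrc1. DESeq2 called 1 member, Cd14.

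Activated libraries had lower levels of most of the 38 members than quiescent ones in both genotypes. In WT, 13 of the 38 members fell and none rose (34.2% called, against 29.8% of all genes tested, of which 18.3% fell and 11.5% rose). In KO, 22 fell and none rose (57.9%, against 33.7% of all genes, of which 20.4% fell and 13.3% rose). The median log2 fold change was -1.87 in WT and -2.63 in KO, beside -0.92 and -0.96 for all genes tested. The median of all genes depended on the genes and libraries used. With no filter on low counts it was -1.93 in WT, below the -1.87 of the members, and -1.84 in KO, above the -2.64 of the members. Without WT activated replicate 1 the WT values were -2.73 for all genes and -1.97 for the members, and without WT activated replicate 2 they were -1.55 and -1.95. Without KO activated replicate 1 the KO values were -1.73 and -2.58, and without KO activated replicate 2 they were -2.28 and -2.88. All activated values lay below all quiescent ones in 21 members in WT (55.3%, against 38.4% of all genes) and in 19 in KO (50%, against 36.1%), and in no KO member did they lie above, where 18.3% of all genes did. Of these, Cd52, Cd37, Tyrobp, Adgre1, Ms4a1, Cd3d, Cd4 and Gzma in WT had at most 3 counts in each activated library. So did Cd52, Vav1, Fcer1g, Adgre1, Cd79a, Cd8a and Cd4 in KO. In WT quiescent libraries Gzma and Tyrobp went down to 0.0522 and 0.418 CPM, where 3 activated counts equal at least 0.490 CPM. With members at 0 in the activated group set to the bound that 3 counts allow, the medians were -1.72 and -2.47. Of the called members, 4 in WT (Cd52, Cd37, Adgre1 and Cd4) and 6 in KO had at most 3 counts in each activated library. The 6 in KO were Cd52, Vav1, Fcer1g, Cd79a, Ms4a1 and Cd4. The count in WT was 3 without WT activated replicate 1, and 7 without WT activated replicate 2 or without WT quiescent replicate 4. In KO it was 8 without KO activated replicate 1. Marker genes of other cell types fell too: 6 of 9 satellite cell genes in WT and 7 of 9 in KO (medians -1.68 and -1.39). So did 4 and 3 of 8 endothelial genes (-1.22 and -1.86) and 3 and 4 of 5 smooth muscle and pericyte genes (-1.71 and -2.47). Of the 7 genes of fibroadipogenic progenitors 3 and 3 fell (-0.53 and -1.63), and 1 rose in KO. The blood cell lists outside the members varied. Of the 7 erythroid genes 1 fell in WT and 0 in KO (-1.15 and -0.30), and of the 4 platelet genes 1 and 1 (-2.05 and -0.59). In the list of other B and plasma cell genes 3 and 5 of 7 fell (-5.35 and -8.92). Of these 7, Jchain, Pax5 and Cd22 had no count in any activated library. Igkc had 3 counts in all in WT and 1 in KO activated libraries. The size of these medians is therefore not measured.

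All 4 genes of antigen presentation fell in both genotypes. Cd74 fell by 2.79 ± 0.69 on the log2 scale in WT, from 58.4 ± 39.3 CPM (SD, n = 4) to 8.30 ± 1.21 CPM (SD, n = 2), with an adjusted p of 0.00445 by edgeR. In KO it fell by 2.89 ± 0.67, from 102.7 ± 63.5 to 13.8 ± 3.97 CPM, with an adjusted p of 0.00247. H2-Aa, H2-Ab1 and H2-Eb1 had log2 fold changes of -2.28, -2.48 and -2.44 in WT and of -2.42, -2.72 and -3.23 in KO.

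Among the 12 myeloid genes, 6 fell in each genotype. Fcer1g (the Fc receptor gamma chain), Lyz2, Cd68, Csf1r and Cd14 fell in both, Adgre1 (the F4/80 antigen) in WT and C1qa in KO. Adgre1 in WT and Fcer1g in KO had at most 3 counts in each activated library. Lyz2 fell by 1.46 ± 0.52 in WT (adjusted p 0.0422 by edgeR) and by 1.50 ± 0.51 in KO (adjusted p 0.029). Without WT quiescent replicate 4 the WT change was -1.02 and without KO quiescent replicate 4 the KO change was -0.86, and neither was called. C1qa fell by 1.94 ± 0.71 in KO (adjusted p 0.042), which was -1.01 and not called without KO quiescent replicate 4, and differed by -1.69 ± 0.77 in WT (adjusted p 0.103). Mrc1 differed by -1.83 ± 0.79 in WT and -1.04 ± 0.69 in KO, and Tyrobp by -2.57 ± 1.46 in KO, with none of these called. The change of Tyrobp rests on 2 counts in all over the KO activated libraries. In WT, where Tyrobp had no activated count, it was at least 2.31-fold lower against 3 counts over the group. C1qb and C1qc, the partners of C1qa, had changes of -0.62 ± 0.68 and -0.99 ± 0.70 in KO, neither called and the former above the median of all genes. Cd14 fell by 1.78 ± 0.44 in WT and by 4.48 ± 0.56 in KO (adjusted p 0.00462 and 4.75e-06 by edgeR).

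The genes shared by leukocytes fell in 2 of 6 in WT (Cd52 and Cd37) and in 5 of 6 in KO. Both WT calls, and that of Cd52 in KO, rest on at most 3 counts in each activated library. Ptprc fell by 3.11 ± 0.83 in KO (adjusted p 0.00701 by edgeR) and differed by -1.76 ± 0.79 in WT (adjusted p 0.0975). Laptm5 fell by 2.89 ± 0.81 in KO (adjusted p 0.00973) and differed by -1.90 ± 0.78 in WT (adjusted p 0.0705). In KO, neither was called without activated replicate 1. Spi1 fell by 2.97 ± 0.78 in KO (adjusted p 0.00629), again not called without activated replicate 1, and differed by -0.29 ± 0.64 in WT. Vav1 and Rac2 also fell in KO, and none of the 4 regulators did in WT. The KO activated libraries held 2 counts of Vav1 in all.

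Of the B cell genes, Cd79a and Ms4a1 fell in KO and none in WT. Cd79a fell by 4.65 ± 0.75 in KO (adjusted p 8.54e-05 by edgeR) and differed by -0.85 ± 0.52 in WT (adjusted p 0.209). Ms4a1 fell by 4.20 ± 1.51 in KO (adjusted p 0.0387) and differed by -4.03 ± 1.55 in WT (adjusted p 0.0563), with 1 count in all over the activated libraries of each genotype. Cd79b, at 4.41 and 7.88 CPM in WT activated libraries, was the single member whose WT activated values lay wholly above the quiescent ones, where 17.6% of all genes did so, and its change of 1.23 ± 0.79 was not called. Among T and NK cell genes Cd4 fell in both genotypes and Lck, the kinase of T cell receptor signalling, in KO. Cd4 had at most 3 counts in each activated library. Cd3e differed by 0.14 ± 0.83 in WT and 0.87 ± 0.74 in KO, with adjusted p of 0.905 and 0.345. Nkg7 differed by -2.92 ± 2.28 in KO (adjusted p 0.308 by edgeR), a change that rests on 1 count in all over the KO activated libraries. In WT, where Nkg7 had no activated count, it was at least 2.03-fold lower.

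**Figure D5:**
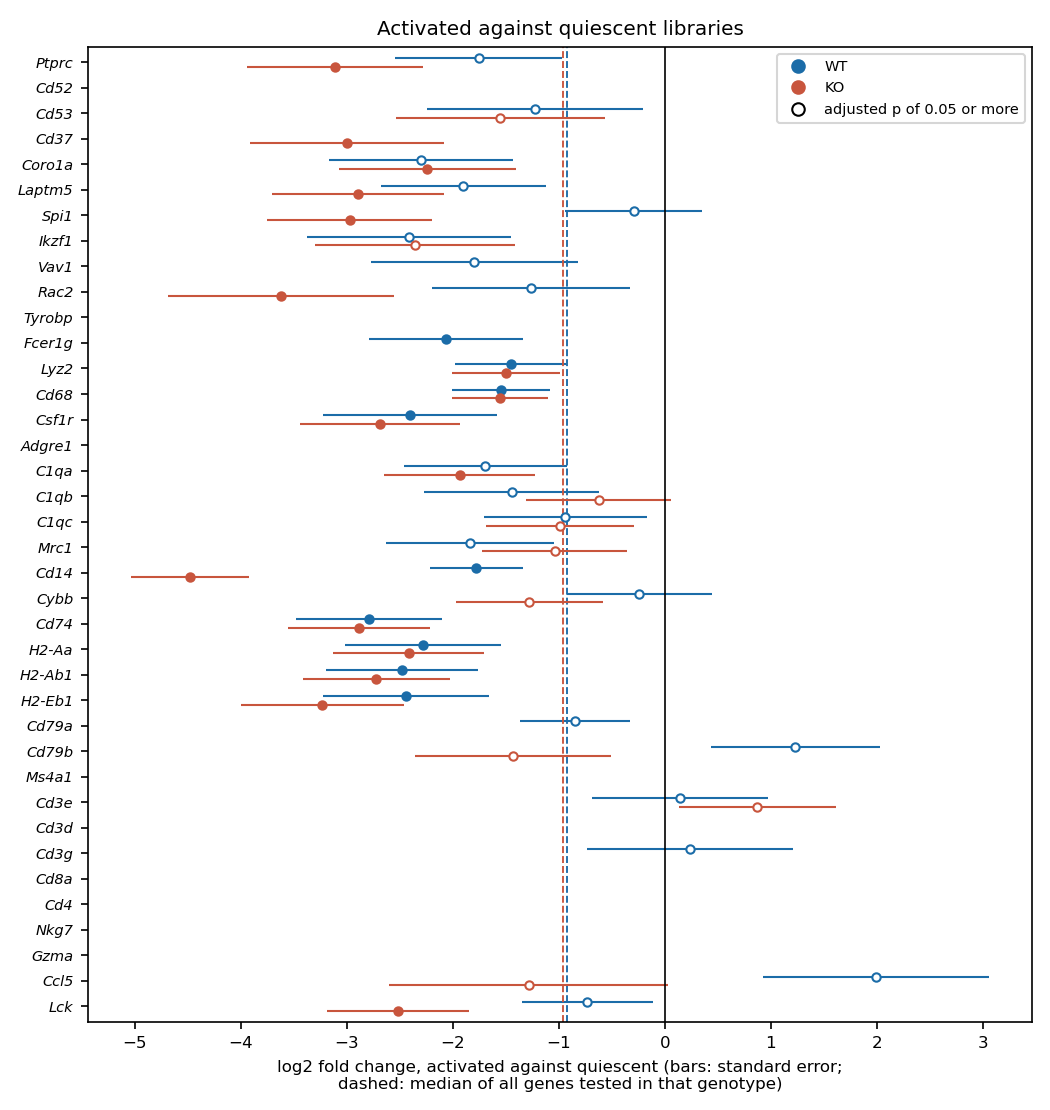
Log2 fold change between activated and quiescent libraries in WT (blue) and KO (red) with its standard error; filled points passed an adjusted p of 0.05 and dashed lines are the medians of all genes tested, -0.92 in WT and -0.96 in KO. Members with at most 3 counts in each activated library (10 in WT and 13 in KO) are not drawn; the 4 genes of antigen presentation are filled in both genotypes and no filled point lies above 0.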

How the data were processed

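RNA was sequenced as paired-end reads. The authors trimmed reads (Trim Galore 0.6.0), mapped them to GRCm38.p6 (STAR 2.7.2a) and deposited raw counts per gene, made with Rsubread on GENCODE genes, and used DESeq2 1.34.0 themselves. The deposited FPKM are the authors' values, 1 per group, and served only for levels between genes. Whether counting used strand is not given in the sources used here. Groups come from the sample labels, which do not say that replicates are separate mice, so p-values measure the spread between these samples.

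Counts of all 12 libraries were fitted with edgeR 4.0.16 in R 4.3.3: filterByExpr (25771 of 55401 genes), TMM, its quasi-likelihood test, and p-values adjusted by Benjamini-Hochberg over all genes tested, with calls at an adjusted p under 0.05. The script was tested on simulated data with changes only in genes of higher counts, which says nothing of calls on members with few counts. The members, lists and role groups were chosen with earlier results of these data known. The 12 lead members, given in every library, were Ptprc, Laptm5, Spi1, Tyrobp, Lyz2, C1qa, Mrc1, Cd74, Cd79a, Ms4a1, Cd3e and Nkg7, and any member called between KO and WT was to be named. Other genes with values, such as Cd14, Csf1r, Cd4, C1qb and Ighm, were chosen after their values were seen. Promoters are from RefSeq (GRCm38.p6), which had windows for 24 of the 38 members, and gene positions from GENCODE M21 on GRCm38. Alternatives were other scaling (DESeq2 size factors, without CT010467.1), other filters, DESeq2 1.42.0, a fit of the compared groups, a replicate block and leaving out each library.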

Additional observations from a re-analysis of the deposited data

Results flagged for a closer look

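Levels of single libraries that stood apart from the other 3 of their quiescent group were flagged. This held in 11 of 88 groups tested (38 members and 6 role sums in 2 genotypes). Chance flags about 1 in 20 groups of independent, normally distributed values. The groups here share libraries and the sums are built from members, so 11 of 88 cannot be set against that rate. Of the flags, 5 were high values in KO quiescent replicate 4: Lyz2 at 164 CPM, Csf1r at 83.4 CPM, C1qc at 64.7 CPM, Mrc1 at 21.1 CPM and Cybb, the NADPH oxidase subunit of phagocytes, at 19.9 CPM. High values in WT quiescent replicate 4 were flagged for Lyz2 (81.2 CPM), Csf1r (19.7 CPM) and the summed T and NK cell genes (34.6 CPM). Gzma was high in KO quiescent replicate 3 at 0.540 CPM. Low values were flagged for Vav1 in WT quiescent replicate 2 (0.284 CPM) and Fcer1g in WT quiescent replicate 1 (2.66 CPM).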

How the results depend on the processing

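With no filter on low counts, 5 members were called between KO and WT in quiescent cells, 3 in activated cells (C1qb, Cd79a and Cd14), 2 in the difference between the states and 22 in WT on activation. DESeq2 called 2 in activated cells and 1 in the difference between the states. Leaving out each library in turn gave 0 to 2 calls between KO and WT in activated cells, 0 to 2 in the difference, 3 to 17 in WT and 8 to 24 in KO on activation. The medians over the members, an addition made after the data were seen, then ranged from -0.27 to 0.45 between KO and WT in activated cells and from -0.79 to 0.19 in the difference. The cause of these changes was not tested.

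Signs that turned without 1 library, as ranges of the log2 fold change, were in quiescent KO against WT those of Tyrobp (-0.024 to 1.34), Mrc1 (-0.28 to 1.08), Cd79a (-0.20 to 0.49), Ms4a1 (-0.86 to 0.41), Cd3e (-0.27 to 0.63) and Nkg7 (-0.33 to 1.96), and in activated KO against WT those of Ptprc (-1.95 to 0.13), Laptm5 (-0.77 to 0.47), Spi1 (-2.40 to 0.36) and Cd3e (-0.56 to 2.07). On activation they were Spi1 in WT (-2.34 to 0.42) and Cd3e in WT (-0.94 to 1.01) and KO (-0.63 to 1.60).

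Whether replicate numbers pair the samples could not be told. Deviations of same-numbered quiescent libraries correlated at 0.05, 0.12, -0.05 and 0.30, the last for replicate 4. Pairs of different numbers ran from -0.21 to 0.08, and not every library correlated best with its own number. With the replicate number as a block, 0, 0 and 0 members were called in the KO comparisons and 13 and 21 on activation, and Ms4a1 in quiescent KO against WT (-0.47) and Cd3e in WT on activation (-0.35) turned sign. The fit of the compared groups was not run for the difference between the states, which needs all groups. Activated libraries held the fewest counts, so members under 0.490 to 1.31 CPM there could not be told from absent.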
